A study of Homo sapiens with 8 samples.

Results

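The 54 genes described here encode core proteins of the spliceosome and the factors that guide it, in MDA231 cells, a human breast cancer line. They were selected by gene family, as the protein components of the U1, U2 and U4/U6.U5 particles, the SR proteins and the hnRNP proteins, and were matched by symbol to 54 of the 58051 gene rows of the count tables. The list was drawn up with SF3B4 in view, whose level had been seen to be lower in SDHB knockout cells and to return after SDHA knockdown. SF3B4 is therefore described without a test, and the other members were tested with p-values adjusted over all genes. A total of 53 members passed the filter on low counts, a mean above 5 normalized counts, and 52 of those are members other than SF3B4. The member that did not pass is U2AF1.

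RNA was measured in 8 samples. There were 2 samples of unmodified parental cells, 3 of cells in which SDHB had been knocked out (SDHB KO), and 3 of SDHB KO cells with an added knockdown of SDHA (SDHB KO SDHA low, shortened to SDHA low). SDHB and SDHA encode the iron-sulfur and the flavoprotein subunit of succinate dehydrogenase, mitochondrial complex II. The comparison addresses what happens when only the SDHB-containing part of the complex is missing, and when SDHA is lowered as well. The knockout was made with TALEN nucleases directed at the first coding exon and hygromycin selection, and SDHA was lowered with a short hairpin RNA and puromycin selection. Every SDHA low sample therefore also carries the SDHB knockout and both selection histories. All cells grew in the same medium with serum, without any treatment, and were collected before confluence. The labels do not say whether a subline is 1 clone or whether replicates are separate cultures, so genotype and subline cannot be told apart and the p-values measure the spread between these samples.

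Before a transcript can be translated, its introns are cut out by the spliceosome. The U1 particle binds the start of the intron, U2AF and the U2 particle recognise its end and the branch site, and the U4/U6.U5 tri-snRNP then joins and is rearranged into the active enzyme. SR proteins mostly promote and hnRNP proteins often repress the use of individual exons, and many of these genes tune their own transcripts by alternative splicing.

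The libraries counted the 3′ ends of transcripts, so that each transcript gives about 1 read whatever its length, and they were shallow, with 773042 to 1427141 reads on genes. Levels below are in CPM, counts per 1000000 reads on the tested genes after TMM scaling, and 3 counts correspond to 2.24 to 4.1 CPM. Reads that mapped to several places made up 10.2% and 10.9% of the reads in the parental samples, 14.5% to 16.1% in SDHB KO and 9.72% to 12.3% in SDHA low. The SDHA row held 64 and 69 counts in the parental samples and 108, 121 and 140 in SDHB KO. It held 7, 17 and 16 in SDHA low, which matches the knockdown label. The labels give no expectation for SDHA in SDHB KO against parental cells. SDHB had 0 to 4 counts in every sample and gives no check of the knockout. VIM, CD44, KRT8, KRT18, FOSL1 and CAV1, genes of this line, were detected in all samples. Of the markers of other cell types, ESR1 and PGR (luminal epithelium), PTPRC, HBB and CD3E (blood), VWF and CDH5 (endothelium) and DCN and PDGFRA (fibroblasts) were at 0 throughout. The luminal genes GATA3, CDH1 and EPCAM had 8 to 20, 0 to 2 and 0 to 1 counts a sample, PECAM1 of endothelium 0 to 2 and COL1A1 of fibroblasts 0 to 4. SDHB KO replicate 3 and SDHA low replicate 2 deviated from their group means together, with a correlation across the 7550 tested genes of 0.27, the highest of the 21 pairs of samples from different groups. Among members picked out after their values were seen, HNRNPL was low in these libraries, at 283 and 254 CPM against 474 to 629 in the other 6, and SNRPA was high, at 654 and 839 against 336 to 432. In bulk samples such as these, fewer cells of a type and less RNA per cell cannot be told apart.

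Most of the splicing genes were not called between any of the 3 groups. In SDHB KO against parental cells, 4 of 52 members rose (U2AF2, SF3B5, SNRPB and PRPF6) and 1 fell (HNRNPA2B1), by edgeR's quasi-likelihood test at an adjusted p below 0.1. At an unadjusted p below 0.05 there were 12 members, 23.1%, beside 17.5% of all genes. The 5 called are 9.62% of the members, beside 5.54% of all 7550 tested genes (418 genes, with 3.14% higher and 2.4% lower). The median log2 fold change of the 52 members was 0.01, beside -0.000724 for all tested genes, and 27 of the 52 were above 0. The values ranged from -1.71 to 1.91, and both ends belong to genes with few reads, SF3B6 and SNRNP40. For 32 of the members the 95% interval of the log2 fold change lay between -1 and 1, so a change of 2 times in either direction was outside it, and for the other 20 it was not. The samples of both groups did not overlap for 22 of 52 members, 42.3%, beside 37.9% of all genes.

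When SDHA was lowered in SDHB KO cells, 1 of 52 members fell, SNRPB, and 0 rose by edgeR, beside 1.51% of all genes called (1.19% lower). At an unadjusted p below 0.05 there were 9 members, 17.3%, beside 12.1% of all genes. The median log2 fold change was 0.06 for the members and 0.01 for all genes, and for 40 of the 52 the interval lay between -1 and 1. In SDHA low cells against parental cells, 0 of 52 members were called by edgeR and 1, U2AF2, by DESeq2, beside 0.914% of all genes called by edgeR (0.689% lower). The samples of these groups did not overlap for 24 of the 52 members, beside 30.7% of all genes. In this comparison 12 members had an unadjusted p below 0.05, 23.1% of them beside 12.3% of all genes, and their median log2 fold change was 0.10 beside 0.02 for all genes. The comparisons share samples, and their values are given side by side.

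**Figure D1:**
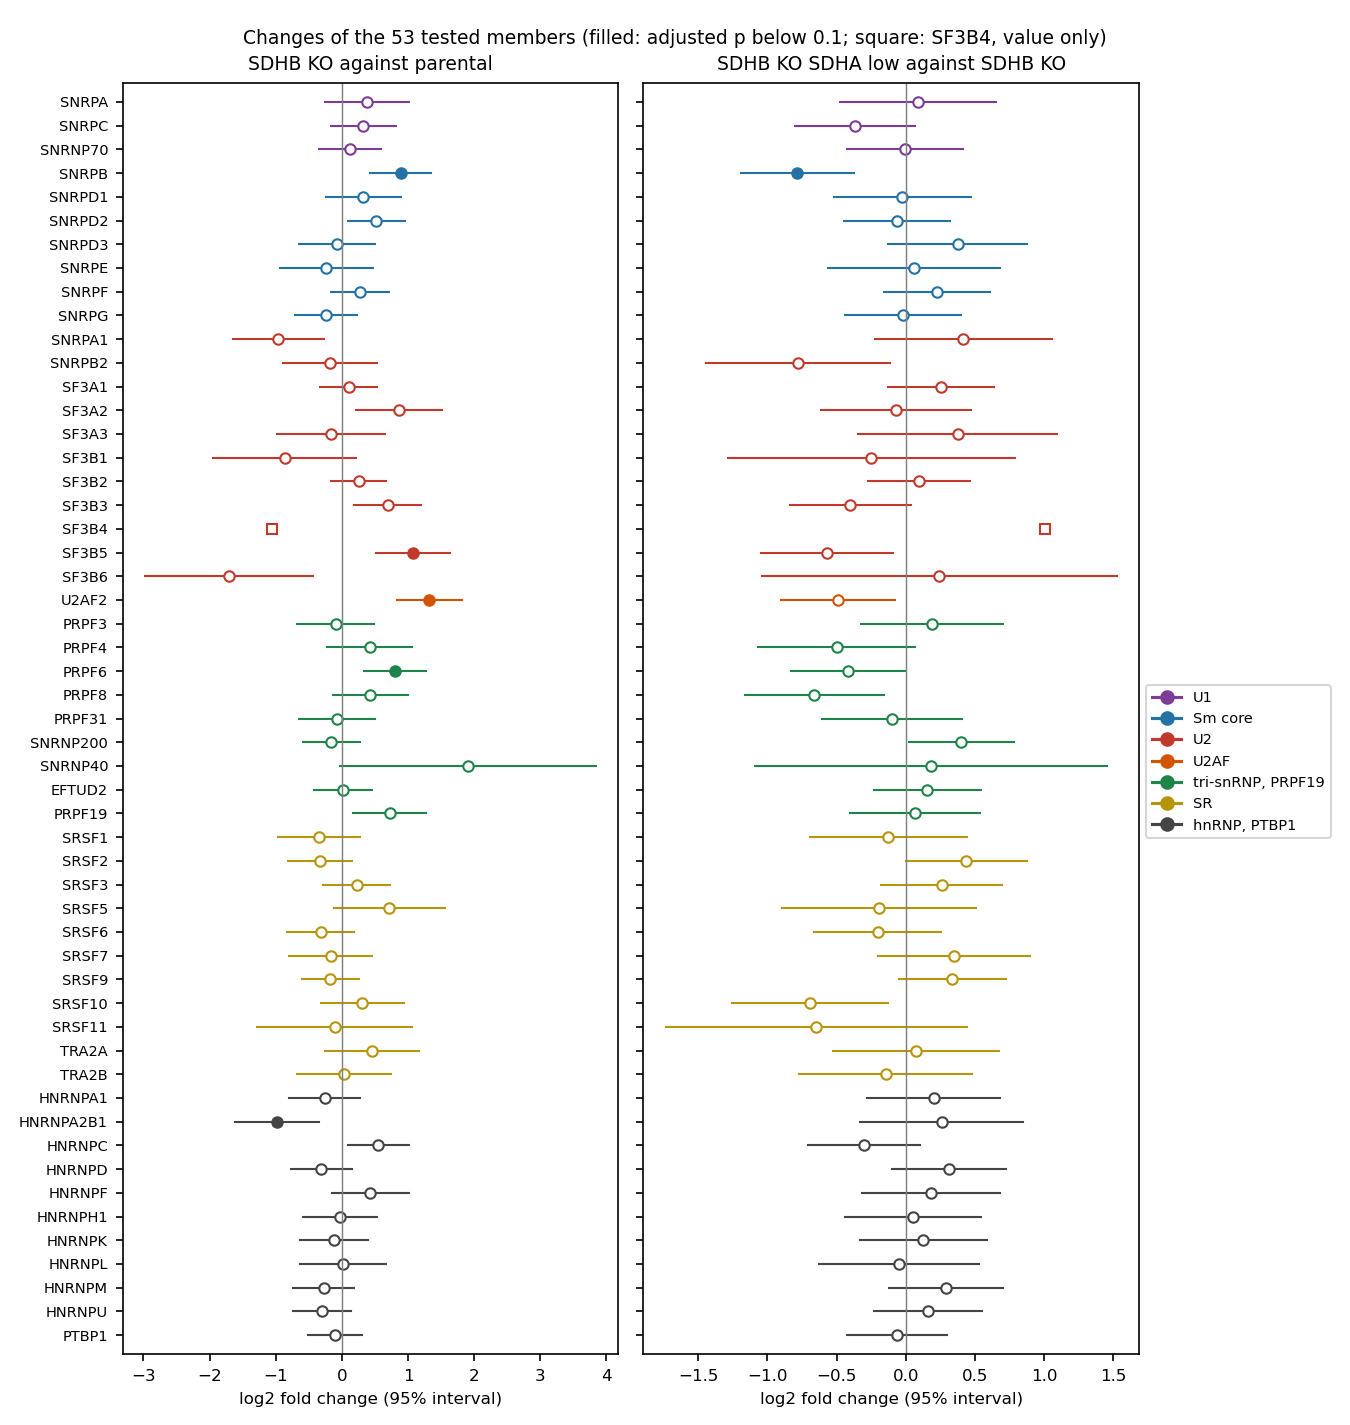
Log2 fold change (x axis) of each tested splicing gene (y axis, ordered and coloured by role) in SDHB KO against parental cells (left) and SDHA low against SDHB KO (right), with 95% intervals from edgeR. Filled points have an adjusted p below 0.1, and the square is SF3B4, shown as a value without an interval. On the left 4 filled points lie above 0 and 1 below, on the right only SNRPB is filled, and the x axes of the panels differ.

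The calls against parental cells rest on only 2 parental samples. With parental replicate 1 left out, 0 of 52 members and 0 of 7550 genes were called by edgeR, with 6 members and 665 genes at an unadjusted p below 0.05. With SDHB KO replicate 1 or SDHB KO replicate 3 left out, U2AF2 was the 1 member called, beside 77 (1.02%) and 148 (1.96%) of all genes. Over all fits without 1 sample, the log2 fold change of U2AF2 was 1.14 to 1.53. Without SDHA low replicate 2, which enters this comparison through the shared estimate of the spread, 9 members were called higher and 2 lower, while calls over all genes went from 418 to 833. With SDHB KO replicate 3 and SDHA low replicate 2 both left out, 7 members were called higher (the 4 above and SF3A2, SF3B3 and HNRNPC) and 0 lower, against 570 of all genes.

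SF3B4 encodes a subunit of the SF3B complex of the U2 particle that contacts the pre-mRNA close to the branch site. The gene lies on the minus strand at chr1:149923317-149927803 (GRCh38). It had 83.3 and 105 CPM in the parental samples, 56.1, 42.2 and 37.8 in SDHB KO and 116, 68.6 and 90.3 in SDHA low, from 72 and 79, 41, 38 and 35, and 96, 92 and 81 counts. The 3 SDHB KO samples were the lowest of all, and the SDHA low samples lay on both sides of the parental ones. These are the values that put SF3B4 in view. The log2 fold change was -1.06 (SE 0.29) in SDHB KO against parental cells, 1.01 (SE 0.263) in SDHA low against SDHB KO, and -0.05 (SE 0.278) in SDHA low cells against parental cells. Of the 201 windows of 100 bases in the last 300 bases of its transcript, 9 (4.48%) also occur in GARIN2, and reads that map to both are left out by the counter. Its promoter is shown here because SF3B4 gave rise to the list, and those of the 5 called members follow where each gene is described. All are from RefSeq, 250 bases before to 50 after the start that RefSeq gives the gene (inside the GENCODE gene for SNRPB, U2AF2 and HNRNPA2B1), read 5′ to 3′ along the gene's own strand on GRCh38.p14, with capitals marking matches on either strand to the GC box with the letters GGGCGG, the CCAAT box and the motif of ETS factors, searched as CCGGAAG. The SF3B4 window (chr1:149927754-149928053, minus strand) holds 3 GC boxes and 1 ETS motif.
SF3B4: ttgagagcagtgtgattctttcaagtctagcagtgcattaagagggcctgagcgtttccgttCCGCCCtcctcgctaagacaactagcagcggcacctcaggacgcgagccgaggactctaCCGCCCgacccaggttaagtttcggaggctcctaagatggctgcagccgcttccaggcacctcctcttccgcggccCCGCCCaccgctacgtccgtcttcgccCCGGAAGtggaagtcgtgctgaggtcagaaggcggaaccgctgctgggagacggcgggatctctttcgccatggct

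Other genes of the U2 particle had values in both directions. SF3B5, the small subunit of the same SF3B complex, rose in SDHB KO cells. It had 450.0 and 500.5 CPM in parental cells, 1215, 695 and 1094 in SDHB KO and 669.8, 889 and 461 in SDHA low, so that every SDHB KO sample was above both parental samples, while SDHA low overlapped with both other groups. The log2 fold change was 1.07 (SE 0.268, edgeR adjusted p = 0.0359) in SDHB KO, -0.57 (adjusted p = 0.311) on lowering SDHA, and 0.51 (adjusted p = 0.448) in SDHA low cells against parental cells. The call in SDHB KO was absent in 4 of the 8 fits that leave out 1 sample and present under all 8 other alternatives. The gene lies on the minus strand at chr6:144094884-144095573, and its promoter window (chr6:144095524-144095823, minus strand) holds 1 GC box and 1 CCAAT box, with no ETS motif.
SF3B5: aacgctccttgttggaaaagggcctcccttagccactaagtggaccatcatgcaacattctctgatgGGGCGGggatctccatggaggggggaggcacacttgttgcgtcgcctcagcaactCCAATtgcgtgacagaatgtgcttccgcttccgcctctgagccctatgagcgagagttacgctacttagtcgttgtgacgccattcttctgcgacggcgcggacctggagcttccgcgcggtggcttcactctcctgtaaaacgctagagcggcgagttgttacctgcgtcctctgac

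Of the 10 tested U2 members other than SF3B4, 1 rose and 0 fell by edgeR in SDHB KO against parental cells. An unadjusted p below 0.05 in edgeR was found for 5, beside 17.5% of all genes. SF3B5, SF3A2 and SF3B3 were higher among these, and SNRPA1 and SF3B6 were lower. Their median log2 fold change was -0.03, and 5 of the 10 were above 0. SF3A2, a subunit of the SF3A complex, had 57.8 and 58.4 CPM in parental cells, 138, 104 and 76.6 in SDHB KO and 141, 87.3 and 75.8 in SDHA low, all 6 modified samples being above the parental ones, with log2 fold changes of 0.86 (adjusted p = 0.138) and 0.79 (adjusted p = 0.286) against parental cells in edgeR. SNRPB2, which binds U2 RNA together with SNRPA1, was measured at 106 and 73 CPM in parental cells, 62.9, 117 and 58.3 in SDHB KO and 41, 29.8 and 70.2 in SDHA low. Its log2 fold change was -0.78 on lowering SDHA (edgeR adjusted p = 0.323) and -0.96 against parental cells (adjusted p = 0.248), with the SDHA low samples overlapping SDHB KO but all below parental cells. SF3B1, the scaffold of the complex and a gene often mutated in blood cancers, had only 5.47 to 30.1 CPM, and SF3B6 3.34 to 18.6 CPM. The interval for SF3B1 in SDHB KO ran from -1.94 to 0.22 on the log2 scale, so neither no change nor a fall of 2 times lay outside it. Lowering SDHA left 0 of the 10 called by edgeR or DESeq2 and 2 at an unadjusted p below 0.05 in edgeR, beside 12.1% of all genes. The median of the 10 was 0.01.

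**Figure D2:**
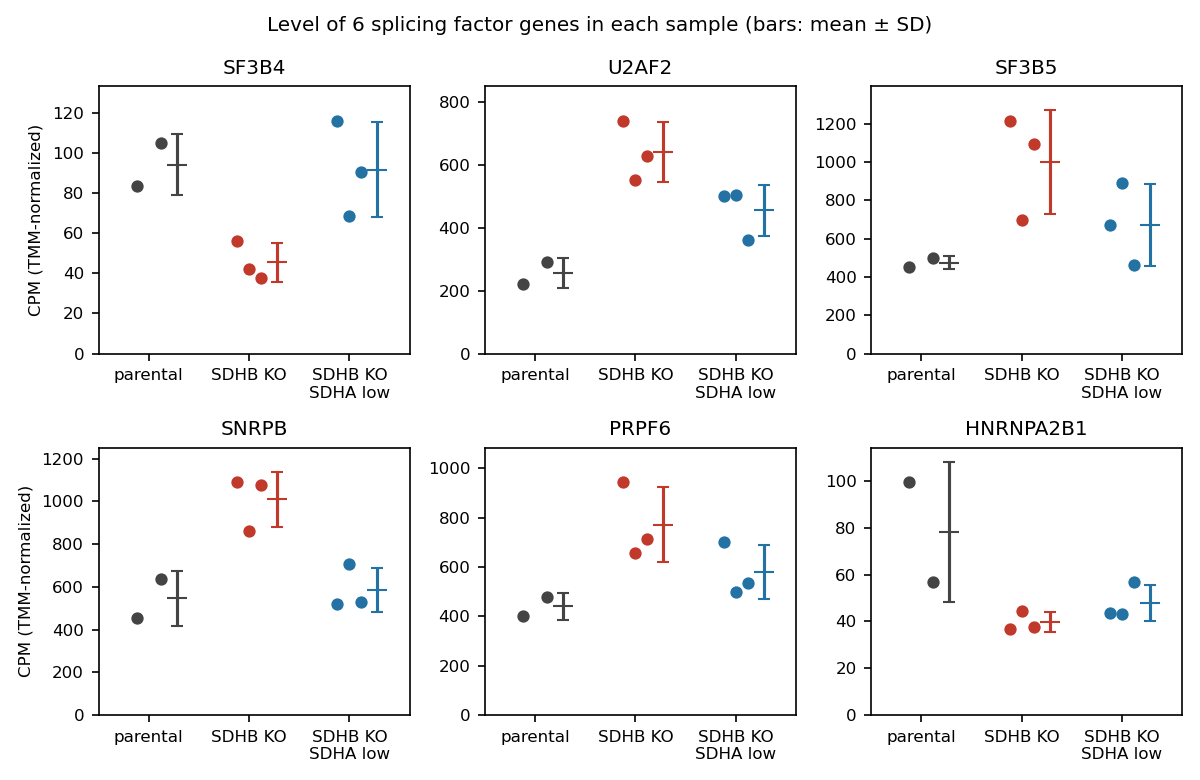
CPM after TMM scaling (y axis, from 0) of SF3B4 and the 5 members called in SDHB KO against parental cells, in each of the 2 parental, 3 SDHB KO and 3 SDHA low samples (points), with the mean and SD beside them. SDHB KO samples lie below all others for SF3B4, above both parental samples for U2AF2, SF3B5, SNRPB and PRPF6, and below both for HNRNPA2B1.

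U2AF2 had the largest change of the members called. It encodes the large subunit of U2AF, which binds the pyrimidine-rich tract before the end of the intron. The samples had 221 and 289 CPM in parental cells, 739, 550.3 and 628 in SDHB KO and 499.6, 504 and 362 in SDHA low, with means of 255 ± 48.4 CPM (SD, n = 2), 639 ± 94.8 CPM (SD, n = 3) and 455 ± 80.6 CPM (SD, n = 3). None of the groups overlapped, with SDHA low between the other groups. The log2 fold change was 1.32 in SDHB KO (SE 0.234, 95% interval 0.84 to 1.81, edgeR adjusted p = 0.00779), -0.49 on lowering SDHA (adjusted p = 0.311) and 0.84 in SDHA low cells against parental cells (adjusted p = 0.122). Of the fits run, the call in SDHB KO was lost in the 1 without parental replicate 1, at 1.14 and an adjusted p of 0.302 in edgeR. In SDHA low cells against parental cells U2AF2 passed the threshold with DESeq2 (adjusted p = 0.0882) and with no filter on low counts in edgeR (adjusted p = 0.0639). U2AF2 lies on the plus strand at chr19:55654146-55674716, where its last exon overlaps an exon of the antisense gene ENSG00000267523. The strand setting of the counting is not given in the sources used here, so reads of the pair may not have been separated. The promoter window (chr19:55654785-55655084, plus strand) lies inside the gene as GENCODE draws it, downstream of its annotated start, and holds 7 GC boxes and 1 ETS motif.
U2AF2: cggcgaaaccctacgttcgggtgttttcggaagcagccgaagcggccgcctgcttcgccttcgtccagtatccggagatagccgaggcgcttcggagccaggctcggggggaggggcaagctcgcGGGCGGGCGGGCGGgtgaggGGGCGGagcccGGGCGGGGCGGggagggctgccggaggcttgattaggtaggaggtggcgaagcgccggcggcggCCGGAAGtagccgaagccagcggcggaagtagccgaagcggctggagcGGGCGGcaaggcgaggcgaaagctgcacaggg

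U2AF1, the small subunit that reads the last bases of the intron, could not be measured. It had 0 counts in 7 samples and 1 in SDHA low replicate 2. All 201 windows of 100 bases at its 3′ end also occur in a copy, ENSG00000275895, whose own row had 1 to 11 counts a sample, and the read counter leaves out reads that map to several places.

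SNRPB changed in both directions, and it was the member called in 2 comparisons. It encodes SmB/B′, part of the ring of Sm proteins that surrounds most of the spliceosomal RNAs. The level was 455 and 637 CPM in parental cells (546 ± 129, SD, n = 2), 1089, 862 and 1077 in SDHB KO (1009 ± 128, SD, n = 3) and 521, 706 and 528 in SDHA low (585 ± 105, SD, n = 3). The 3 SDHB KO samples were above all 5 others, and SDHA low overlapped with parental cells. In SDHB KO it rose by 0.89 on the log2 scale (SE 0.225, edgeR adjusted p = 0.0386) and its change on lowering SDHA was -0.78 (SE 0.196, adjusted p = 0.0663). From parental to SDHA low cells the log2 fold change was 0.10, with an interval of -0.36 to 0.56 (edgeR adjusted p = 0.892). The rise in SDHB KO was called in 4 of the 8 fits without 1 sample, and the fall after SDHA knockdown in 2 of 8, with a log2 fold change of -0.96 to -0.71 over these fits. The fall was also not called by edgeR when only the 2 groups entered the fit (adjusted p = 0.11). The gene lies on the minus strand at chr20:2461634-2470853, and its promoter window (chr20:2470740-2471039, minus strand) holds 1 ETS motif and neither a GC box nor a CCAAT box.
SNRPB: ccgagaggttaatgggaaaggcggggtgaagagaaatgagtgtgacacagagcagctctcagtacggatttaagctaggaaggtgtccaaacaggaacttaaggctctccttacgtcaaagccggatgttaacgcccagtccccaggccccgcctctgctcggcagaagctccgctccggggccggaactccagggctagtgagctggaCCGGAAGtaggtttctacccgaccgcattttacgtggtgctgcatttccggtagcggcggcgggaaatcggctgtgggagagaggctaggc

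Of the 7 Sm members, SNRPB was the 1 called by edgeR, higher in SDHB KO and lower on lowering SDHA, and at an unadjusted p below 0.05 there were 2 and 1 of the 7, beside 17.5% and 12.1% of all genes. The 7 had a median log2 fold change of 0.27 in SDHB KO and of -0.02 on lowering SDHA. SNRPD2, whose row collected the most reads of the Sm genes, had 664 and 758 CPM in parental cells, 1184, 822 and 1053 in SDHB KO and 969, 1051 and 906 in SDHA low. All 6 modified samples were above the parental ones, and the log2 fold changes against parental cells were 0.52 (edgeR adjusted p = 0.186) and 0.46 (adjusted p = 0.374). SNRPD3, which pairs with SNRPB in the ring, was at 117 and 114 CPM in parental cells, 160.1, 93.4 and 78.8 in SDHB KO and 156, 126 and 147 in SDHA low. The log2 fold change of SNRPD3 was -0.07 in SDHB KO and 0.37 on lowering SDHA (edgeR adjusted p = 0.569). The spread among the SDHB KO samples covered the whole range of the parental ones. The 3 U1 proteins, SNRPA, SNRPC and SNRNP70, had 0 calls by edgeR or DESeq2 and 0 at an unadjusted p below 0.05 in each of the 3 comparisons. Of all genes 17.5% had such a p in SDHB KO, 12.1% on lowering SDHA and 12.3% in SDHA low cells against parental cells. SNRNP70, which holds the U1 RNA, was at 493 and 555 CPM in parental cells, 665, 558 and 496 in SDHB KO and 623, 420.1 and 671 in SDHA low, with a log2 fold change of 0.13 in SDHB KO (interval -0.34 to 0.60).

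Among the 9 proteins of the tri-snRNP and the PRPF19 complex, PRPF6 rose in SDHB KO cells. PRPF6 bridges the U5 and U4/U6 parts of the tri-snRNP. It was measured at 403 and 479 CPM in parental cells, 943, 658 and 713 in SDHB KO and 702, 497 and 535 in SDHA low, and all 6 modified samples were above the parental ones. The log2 fold change was 0.81 in SDHB KO (SE 0.227, edgeR adjusted p = 0.062), -0.42 on lowering SDHA (adjusted p = 0.402) and 0.39 against parental cells (adjusted p = 0.501). The call was absent in 4 of the 8 fits without 1 sample, at 0.64 without SDHB KO replicate 1 (edgeR adjusted p = 0.219) and 0.69 without parental replicate 1 (adjusted p = 0.543). It lies on the plus strand at chr20:63981132-64033100, and its promoter window (chr20:63980882-63981181, plus strand) holds 2 GC boxes and 2 ETS motifs.
PRPF6: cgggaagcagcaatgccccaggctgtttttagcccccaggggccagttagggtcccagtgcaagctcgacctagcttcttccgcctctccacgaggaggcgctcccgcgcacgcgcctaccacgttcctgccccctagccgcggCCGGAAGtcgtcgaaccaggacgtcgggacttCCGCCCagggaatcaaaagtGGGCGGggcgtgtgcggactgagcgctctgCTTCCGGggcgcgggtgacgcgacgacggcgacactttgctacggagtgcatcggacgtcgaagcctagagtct

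The median log2 fold change of these 9 genes was 0.42 in SDHB KO and 0.07 on lowering SDHA. In SDHB KO 1 was called higher, 11.1% beside 5.54% of all genes called by edgeR. On lowering SDHA 0 were called by edgeR or DESeq2, and 3 had an unadjusted p below 0.05 in edgeR, 33.3% beside 12.1% of all genes. PRPF19, a ubiquitin ligase that helps to activate the spliceosome, had 71.7 and 77 CPM in parental cells, 137, 110.1 and 122 in SDHB KO and 157, 137 and 92.5 in SDHA low. All 6 modified samples were above the parental ones, with log2 fold changes of 0.72 (edgeR adjusted p = 0.149) and 0.79 (adjusted p = 0.203). SNRNP200, the helicase that unwinds U4 from U6, was at 249.9 and 246 CPM in parental cells, 223, 228 and 216 in SDHB KO and 282, 305 and 293 in SDHA low. The samples with SDHA lowered were the highest, by 0.40 on the log2 scale over SDHB KO (edgeR adjusted p = 0.385). SNRNP40, a U5 protein, had 0 counts in parental replicate 1, which allows up to 3.47 CPM by counting error alone, and at most 12.7 CPM in any sample, with an interval of -0.02 to 3.84 in SDHB KO.

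None of the 11 SR proteins and their TRA2 relatives was called by edgeR or DESeq2 in any comparison. At an unadjusted p below 0.05 in edgeR there were 0 in SDHB KO against parental cells, beside 17.5% of all genes. There were 2 (18.2%) in SDHA low against SDHB KO, beside 12.1%, and 1 (9.09%) in SDHA low cells against parental cells, beside 12.3%. The medians of the 11 in these comparisons were -0.11, -0.13 and 0.11 on the log2 scale. The intervals of 8 of the 11 lay between -1 and 1 in the first comparison. SRSF2, which binds exonic enhancers, had 200.1 and 162 CPM in parental cells, 159, 141 and 133 in SDHB KO and 203, 228 and 154 in SDHA low, with log2 fold changes of -0.33 (edgeR adjusted p = 0.496) and 0.44 (adjusted p = 0.411). SRSF6 had 134 and 143 CPM in parental cells, 109, 121 and 104 in SDHB KO and 92.9, 78.3 and 120.3 in SDHA low. All 6 modified samples were below the parental ones, with log2 fold changes of -0.32 (edgeR adjusted p = 0.537) and -0.52 (adjusted p = 0.383). SRSF10, a splicing repressor in its dephosphorylated form, was at 93.7 and 94.3 CPM in parental cells, 171, 85.6 and 95 in SDHB KO and 82.1, 51.5 and 84.7 in SDHA low, where SDHB KO replicate 1 stood above all other samples. Its log2 fold change on lowering SDHA was -0.69 (edgeR adjusted p = 0.291). SRSF9 collected the most reads of this family, at 404 and 481 CPM in parental cells, 335, 457 and 381 in SDHB KO and 475, 479.8 and 527 in SDHA low. Its row is uncertain, because all 201 windows of its 3′ end also lie within GATC on the opposite strand.

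Of the 11 hnRNP proteins, counted with PTBP1, HNRNPA2B1 fell in SDHB KO against parental cells, 9.09% beside 5.54% of all genes called. On lowering SDHA none was called by edgeR or DESeq2, and 0 had an unadjusted p below 0.05 in edgeR, beside 12.1% of all genes. HNRNPA2B1 encodes an abundant nuclear RNA-binding protein that also sorts RNAs for transport. Its row held 99.5 and 57.1 CPM in parental cells, 36.9, 44.5 and 37.8 in SDHB KO and 43.4, 43.3 and 56.8 in SDHA low. The parental samples differed from each other by more than the modified samples did among themselves, and SDHA low lay below parental cells by a narrow margin. The log2 fold change was -0.98 in SDHB KO (SE 0.304, edgeR adjusted p = 0.0896), 0.26 on lowering SDHA (adjusted p = 0.759) and -0.72 against parental cells (adjusted p = 0.316). Without parental replicate 1 the fall in SDHB KO was -0.52 (edgeR adjusted p = 0.756), and after correction for the GC content of 3′ ends it was -0.83 (adjusted p = 0.104). The call was present in 3 of the 8 fits without 1 sample and in 5 of the 8 other alternatives, and was lost under the replicate block, under the GC correction and in the fit that left out both deviating libraries. The gene lies on the minus strand at chr7:26171151-26201529, and the promoter window (chr7:26200697-26200996, minus strand), which also lies inside the GENCODE gene downstream of its start, holds 1 CCAAT box, with neither a GC box nor an ETS motif.
HNRNPA2B1: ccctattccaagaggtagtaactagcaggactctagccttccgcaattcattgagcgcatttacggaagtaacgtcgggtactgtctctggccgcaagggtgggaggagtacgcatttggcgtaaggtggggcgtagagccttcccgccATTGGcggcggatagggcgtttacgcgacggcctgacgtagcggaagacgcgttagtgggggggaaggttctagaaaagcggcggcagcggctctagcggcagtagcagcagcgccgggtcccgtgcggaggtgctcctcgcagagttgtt

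The hnRNP genes had a median log2 fold change of -0.12 in SDHB KO, with 3 of 11 above 0, and 0.16 on lowering SDHA, with 8 of 11 above 0. In the second comparison the interval of each of the 11 lay between -1 and 1. PTBP1, the polypyrimidine tract protein that represses many exons, had 773 and 855 CPM in parental cells, 740.2, 708 and 824 in SDHB KO and 678, 760.3 and 737 in SDHA low. Its intervals were -0.51 to 0.30 in SDHB KO and -0.42 to 0.30 on lowering SDHA, so that changes of 2 times lay outside both. HNRNPD, a protein that binds AU-rich elements, was at 256 and 284 CPM in parental cells, 256, 210.1 and 187 in SDHB KO and 281, 229 and 301 in SDHA low, with log2 fold changes of -0.31 (edgeR adjusted p = 0.496) and 0.31 (adjusted p = 0.554). HNRNPA1 has 74 pseudogene rows in the tables, and its own row is uncertain where reads match these copies.

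The remaining genes of the splicing pathway were read from 6 lists, 152 genes, of which 127 were tested. In SDHB KO against parental cells 2 rose and 3 fell by edgeR, 3.94% beside 5.54% of all genes, and their median log2 fold change was -0.12. Of the lists, 1 of 7 genes of the minor spliceosome list (SNRNP27, which belongs to the major tri-snRNP), 1 of 9 exon junction complex and 3 of 30 wider hnRNP and RNA-binding genes were called, and 0 of 53 further core spliceosome, 0 of 14 SR-related and kinase and 0 of 14 snRNP assembly genes, by edgeR or DESeq2, which had 5, 2 and 2 at an unadjusted p below 0.05 in edgeR, beside 17.5% of all genes. The genes that rose were ALYREF, which couples splicing to RNA export, and SNRNP27. ALYREF had 86.8 and 86.3 CPM in parental cells, 315, 142 and 223 in SDHB KO and 161, 290.2 and 104 in SDHA low, a log2 fold change of 1.38 in SDHB KO (adjusted p = 0.0446). SNRNP27 went from 23.1 and 26.5 CPM in parental cells to 69.8, 58.9 and 43.2 in SDHB KO, by 1.20 on the log2 scale (edgeR adjusted p = 0.0923), and had 47.1, 22.4 and 33.4 in SDHA low.

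All 3 that fell are hnRNP genes outside the 54. HNRNPA0 had 532 and 535 CPM in parental cells, 290.1, 267 and 338 in SDHB KO and 377, 431 and 369 in SDHA low. HNRNPA3 had 56.7 and 35.8, 9.58, 18.9 and 14, and 14.5, 18.7 and 15.6 CPM in the same order, and HNRNPH3 99.5 and 39.8, 16.4, 20 and 18.3, and 20.5, 15.7 and 35.7. In each of these genes all 6 modified samples were below both parental ones. The log2 fold changes in SDHB KO were -0.84, -1.69 and -1.93 (edgeR adjusted p = 0.0321, 0.0314 and 0.0158). HNRNPH3 was also called in SDHA low cells against parental cells, at -1.57 (edgeR adjusted p = 0.0922), the 1 gene of the 127 called there beside 0.914% of all genes. Of the 30 tested genes of the wider hnRNP and RNA-binding list 7 were above 0 in SDHB KO, with a median log2 fold change of -0.29. DESeq2 called 2 of these 30 in SDHB KO where edgeR called 3. Over all genes DESeq2 called 378, 9.36% of those to which it gave an adjusted p, and edgeR 418, 5.54%. Genes to which DESeq2 gave no adjusted p count as not called. Lowering SDHA in SDHB KO cells left 0 of 127 called by edgeR or DESeq2, with 15 at an unadjusted p below 0.05, 11.8% beside 12.1% of all genes.

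The 54 genes together took 1.12% and 1.10% of the reads on genes in parental cells, 1.24% to 1.36% in SDHB KO and 1.20% to 1.31% in SDHA low, with 95% Wilson intervals of at most 0.0255 percentage points to either side, which cover counting error only. The parental samples had the lowest shares, and the modified groups overlapped. Such a share weights each gene by its reads, and the median log2 fold change of the 52 members in SDHB KO was 0.01. The change of the members in SDHB KO moved with the base composition of the transcript end, where these libraries prime. Across the 52 members Spearman's rho between the GC content of the last 300 bases and the log2 fold change was 0.38, and across 7539 tested genes it was 0.13. The genes share libraries and depth and are not independent, so no p is given. The 20 members at or above the median GC content of 43.3% had a median log2 fold change of 0.32, with 14 above 0, and the 32 below it -0.14, with 13 above 0. For all tested genes the medians were 0.07 and -0.08. U2AF2, SF3B5, SNRPB and PRPF6 lie in the upper part at 49.7% to 58.0%, HNRNPA2B1 in the lower at 27.3%, and SF3B4 has 45.7% and the opposite sign. After a GC trend was removed from each sample, rho was 0.20 over the members and 0.03 over all genes. The medians of the 20 and the 32 members were then 0.26 and -0.03, and the same 4 members were called higher. On lowering SDHA, without this correction, rho was -0.23 over the members and -0.08 over all genes.

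Promoter letters were searched in the 48 members with an entry in the RefSeq table. The ETS motif CCGGAAG occurred on either strand in 19 of 48, 39.6%, beside 21.4% of the promoters of 6081 tested genes and 10.3% of all 35116 promoters. SF3B4, U2AF2, SNRPB and PRPF6, shown above, carry it, and SF3B5 and HNRNPA2B1 do not. Whether the motif bears on their levels was not tested. GC boxes were in 62.5% of the member promoters and 74.2% of those of tested genes, CCAAT boxes in 33.3% and 37.6%, the E-box, read as CACGTG, in 8.33% and 10.9%, and the TATA box, read as TATAAA, in 10.4% and 4.82%. A match describes the letters and not the binding of a factor.

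Such reads are left out of the gene counts, and the share was highest in SDHB KO, where most of the calls were made. Except for U2AF1, SRSF9 and SF3B4, the members share no window of 100 bases at the 3′ end with another gene of the annotation, and the part of multimapping in their values was not tested.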

How the data were processed

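The 8 samples were sequenced as 3′ mRNA libraries. Per the study's methods the authors trimmed reads with Trimmomatic, removed ribosomal and mitochondrial reads, and aligned to GRCh38 with STAR 2.5.2b, and they deposited raw counts per gene. The strand setting is not given in the sources used here. They also deposited counts divided by size factors, a signal used only for checking. For SDHB KO these files are exchanged between replicates 1 and 3 relative to the raw counts, whose numbering was kept. Rows that name no gene (18.8% to 28.6% of reads) were left out.

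Genes with a mean above 5 normalized counts (7550 of 58051) were tested in 1 fit of 3 groups with edgeR 4.0.16 (quasi-likelihood, TMM, R 4.3.3), with p-values adjusted by Benjamini-Hochberg over all tested genes and 0.1 as the threshold. The script was tested on simulated data. Levels are CPM on reads of the tested genes. Names, positions and 3′ ends came from GENCODE on the same assembly in another release, and promoters from RefSeq. The members and lists were chosen with earlier results of these data known. Values are given for called members, for the 3 largest changes in each direction in each comparison among members with a mean of at least 50 counts, for the member with the most CPM per role, for members below the filter or with a copy, for called genes of the other lists, and for SDHA and SDHB. Replicate numbers shared between groups did not pair samples, with correlations of deviations from -0.27 to 0.09 over 7 same-numbered pairs. Alternatives were DESeq2 1.42.0 and its size factors, other filters, a replicate block, a GC correction, fits of 2 groups, a threshold of 0.05 and leaving out samples. No interval or test covers more than the spread between these samples.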

Additional observations from a re-analysis of the deposited data

Results flagged for a closer look

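Reads that mapped to several places are outside the gene counts compared above. They made up 14.5% of all reads in the lowest SDHB KO sample, above every parental sample (10.2% and 10.9%) and above every SDHA low sample (at most 12.3%). No group had the 4 samples needed to look for a sample far from the others.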

How the results depend on the processing

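The members' median deviation of a sample from its group mean had a spread of 0.0638 (SD) between replicates. That is a spread of single samples and not the error of a difference between groups, so it serves as a scale and not as a test. The median log2 fold change of the 52 members was smaller than 0.0638 in SDHB KO and on lowering SDHA. In SDHA low cells against parental ones the median log2 fold change was larger than that spread. Between SDHB KO and parental cells it was 0.01, and it was 0.0872 with the GC correction, 0.138 with SDHB KO replicate 3 and SDHA low replicate 2 both left out, and -0.0122 to 0.167 leaving out 1 sample, with 0.167 without parental replicate 1 and 0.14 without SDHB KO replicate 3. On lowering SDHA it was 0.06, and it was -0.0461 with both libraries left out and -0.00709 to 0.113 leaving out 1 sample, with -0.00709 without SDHB KO replicate 3. In SDHA low cells against parental ones it was 0.10, and 0.0756 to 0.198 leaving out 1 sample, with 0.198 without parental replicate 1. For SF3B4 the log2 fold change was -1.23 to -0.88 between SDHB KO and parental cells and at least 0.81 on lowering SDHA over all fits, and against parental cells it lay on both sides of 0 after SDHA knockdown (-0.25 to 0.13). The 20 other changes recomputed, those called or largest in a comparison, kept their sign over 160 values under other settings and 160 with 1 sample left out. They were picked for size, and the other changes of named members were not recomputed.

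Counts of called members moved more, and calls over all genes moved too. In SDHB KO against parental cells, 418 of all genes (5.54%) were called. The replicate block gave 199 genes, a fit of only the 2 groups 773, and leaving out 1 SDHB KO or SDHA low sample 77 to 833. Of the members 5 were called there. The replicate block gave 3, an adjusted p below 0.05 gave 3, a fit of only the 2 groups compared gave 9, and leaving out 1 sample gave 0 to 11. On lowering SDHA 1 was called, with 0 under the replicate block, a fit of only the 2 groups and an adjusted p below 0.05, 2 with SDHB KO replicate 3 and SDHA low replicate 2 both left out, and 0 to 3 leaving out 1 sample. In SDHA low cells against parental ones 0 were called by edgeR, with 12 at an unadjusted p below 0.05, and 1 with no filter on low counts, 1 with DESeq2, 1 with both libraries left out and 0 to 3 leaving out 1 sample. The 11 were reached without SDHA low replicate 2, as were the 3 on lowering SDHA (SNRPB, SF3B5 and PRPF8), and the 3 against parental cells without SDHA low replicate 3 (U2AF2, PRPF19 and SNRPB2). Over all genes, calls on lowering SDHA went from 114 (1.51%) to 59 under the replicate block and 64 with only the 2 groups. They were 144 with both libraries left out, and 39 to 362 without 1 SDHB KO or SDHA low sample. For SDHA low cells against parental ones, calls over all genes numbered 69 (0.914%). They were 70 with DESeq2, 173 with both libraries left out, and 8 to 172 without 1 SDHB KO or SDHA low sample. On lowering SDHA 0 members were called without either parental sample, without SDHB KO replicate 1 or 3, or without SDHA low replicate 1 or 3.

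Other splicing genes called in SDHB KO against parental cells numbered 5, with 14 in a fit of only the 2 groups and 0 to 14 leaving out 1 sample. On lowering SDHA 0 were called by edgeR and by DESeq2, with 15 at an unadjusted p below 0.05, 1 with both libraries left out and 0 to 5 leaving out 1 sample. In SDHA low cells against parental ones 1 was called, with 3 without a filter, 0 with a mean above 10, under the replicate block, with only the 2 groups and at an adjusted p below 0.05, and 0 to 2 leaving out 1 sample. The cause of these moves was not tested.

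The replicate block lost PRPF6 (edgeR adjusted p = 0.125) and HNRNPA2B1 (0.17) in SDHB KO and SNRPB on lowering SDHA (0.152). Its numbers mark no pairing of the samples. The block together with the GC correction was not run, since it was planned only for paired numbers. The fit with both libraries left out was chosen after seeing the data. With 1 parental sample left, that sample was assumed to vary like the other groups. With 773042 to 1427141 reads on genes, 20 of 52 members had an interval in SDHB KO against parental cells that reached a change of 2 times.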
